A study of Mus musculus with 20 samples.

Results

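The transcripts of 10 transport proteins of the hepatocyte, which move drugs, conjugates and bile salts between blood, cell and bile, were followed here. They were chosen by gene symbol: every probe set of the deposited table whose platform symbol was Abcc2, Abcb1a, Abcb11, Abcg2, Abcc3, Abcc4, Slco1a4, Slco1b2, Slco2b1 or Slc10a1. All 10 genes were measured, by 18 of the 45037 probe sets, among 18193 genes in all. The tests ran over the 16054 genes that exceeded the array's own 25th percentile on at least 5 of the 20 arrays, and all 10 transporters were among them.

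The study gave male CD-1 mice, an outbred stock, phenobarbital sodium (PB) at 80 mg/kg/day, or only its vehicle, 0.5% methylcellulose 15 (CMC), by mouth once a day in a volume of 10 mL/kg. Dosing lasted 28 or 90 days, and the left lateral lobe of the liver was taken the day after the last dose. The 4 groups, CMC 28d, PB 28d, CMC 90d and PB 90d, held 5 numbered liver samples each, 1 array per sample. No source used here gives the age of the mice. The labels do not say outright that the 5 samples of a group came from 5 mice, so p-values measure the spread between these samples. Values are log2 signals made by the authors with RMA (robust multi-array average) and can be compared between arrays for 1 probe set but not between probe sets.

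Bile forms because transporters of the canalicular membrane, which faces the bile duct system, pump bile salts and conjugated drugs out of the hepatocyte with the energy of ATP. On the opposite, basolateral face, carriers of the SLC families take the same compounds up from blood, and a further pair of ATP-driven pumps, Abcc3 and Abcc4, returns conjugates to blood. Phenobarbital activates the constitutive androstane receptor (CAR) of hepatocytes, which raises drug-metabolising enzymes, and several transporters of drugs and conjugates are known as genes that such activators can raise in mouse liver.

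Responses of the livers to the drug were checked first. Cyp2b10, the P450 enzyme that serves as the standard readout of CAR, lay between 4.66 and 7.78 in the CMC 28d samples and between 9.03 and 11.68 in PB 28d, and between 4.98 and 7.76 in CMC 90d and 10.54 and 12.23 in PB 90d. The treated and vehicle ranges did not overlap at either duration, so each treated sample fitted its label. The 5 measured hepatocyte markers (of 7 listed) were above the 25th percentile on all 20 arrays, and their mean was between 13.44 and 14.46. A pair of treated arrays lay at the low end of the first principal component of all genes, which held 55.6% of the variance: PB 28d replicate 5 with a score of -107.9 and PB 90d replicate 3 with -65.2, against -39.8 for the next array. That component touches many of the results below, so values without these 2 arrays are given for many of the comparisons.

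Abcc4 was the transporter that differed most between treated and vehicle samples: its signal was 2.03-fold higher with phenobarbital at 28 days and 2.82-fold higher at 90 days, and the 90-day difference passed the test over all genes. Abcc3, its basolateral partner, was 1.56-fold higher at 28 days and 1.22-fold higher at 90 days without passing the test. It passed at both durations only in a fit that took account of the largest pattern of variation between arrays. On simply leaving out the 2 low-scoring arrays it did not pass. None of the 4 canalicular pumps and none of the 4 uptake carriers passed the test at either duration. Of all genes, 0.0498% passed at 28 days and 0.143% at 90 days. The bile salt pump Abcb11 and the bile salt carrier Slc10a1 differed by 0.22 or less on the log2 scale in both comparisons. Without the 2 low-scoring arrays they differed by 0.49 and 0.40 at 28 days and by 0.06 and 0.02 at 90 days, without passing.

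Abcc4 (MRP4), a basolateral exporter of cyclic nucleotides, bile salts and sulphated conjugates, was measured by 1 probe set, 1443870_at. Among the vehicle samples at 28 days its signals, in order of replicate number, were 5.77, 5.32, 5.30, 5.42 and 4.75. With phenobarbital for 28 days they were 6.18, 6.57, 6.41, 6.60 and 5.90. All 5 treated samples lay above all 5 vehicle samples.

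After 90 days the vehicle samples gave 6.42, 5.75, 5.73, 5.35 and 5.45, and the treated samples 7.84, 7.73, 6.20, 7.13 and 7.30. Here 4 of the 5 treated samples lay above every vehicle sample. The exception was PB 90d replicate 3, one of the 2 arrays named above, which lay below the highest vehicle sample.

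The 28-day difference in Abcc4 was 1.02 ± 0.27 (SE; 95% interval 0.47 to 1.58), from 5.31 ± 0.36 to 6.33 ± 0.29 (SD, n = 5). By limma it ranked 25th among all genes with an unadjusted p of 0.000996, but its Benjamini-Hochberg adjusted p was 0.634, so it did not pass. The 2 groups did not overlap, which was true of 0.542% of all genes tested and, in the higher direction, of 0.355%. At 90 days the difference was 1.50 ± 0.27 (95% interval 0.94 to 2.05), from 5.74 ± 0.42 to 7.24 ± 0.65, with a limma adjusted p of 0.014. Averaged over both durations it was 1.26 ± 0.19, or 2.39-fold, with a limma adjusted p of 0.00122. In whole liver, a higher signal per hepatocyte and a larger share of the cells that carry the transcript cannot be told apart.

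The call at 90 days depended on which arrays entered the fit. It was lost when only CMC 90d and PB 90d entered the fit (limma adjusted p = 0.146) and on leaving out vehicle replicate 4 or 5 or treated replicate 1 or 2 (0.0612 to 0.0708). On leaving out the 2 low-scoring arrays, the difference was 1.76 at 90 days (limma adjusted p = 0.000232) and 1.13 at 28 days (0.0575). With limma's array weights, which count variable arrays for less, the 28-day difference was 1.13 and passed (0.0358), as did 0.106% of all genes.

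Of the marker lists of other cell types, only the neutrophil list held a called gene, 1 of its 7, and its mean moved with the same groups through that gene. The mean of the 7 lay between 5.24 and 5.56 in CMC 28d and between 5.90 and 6.45 in PB 28d, and between 4.79 and 5.20 in CMC 90d and 5.13 and 6.37 in PB 90d, and all 7 were above the 25th percentile on every array. The signal of S100a8, which neutrophils and other myeloid cells make, differed by 5.06 ± 1.13 at 28 days and by 6.28 ± 1.13 at 90 days (limma adjusted p = 0.248 and 0.0163). Its lowest PB 90d sample, 5.42, lay below the highest CMC 90d sample, 5.64. Its usual partner S100a9 gave -0.15 ± 0.32 and -0.01 ± 0.32, and the other 5 lay between -0.13 and 0.22. The median over the 7 was 0.16 at 28 days and 0.12 at 90 days. With phenobarbital at 90 days, 2 of 7 Kupffer cell markers were lower at an unadjusted p under 0.05, against 1.38% of all genes. Only 1 of these 7 had a positive change. Of 7 stellate cell markers, 2 were higher at that p, against 3.15% of all genes, and 4 had a positive change. No marker of either list was called, and their share in the change of Abcc4 was not tested.

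The levels of Abcc4 stood in the order CMC 28d, CMC 90d, PB 28d and PB 90d. The vehicle samples differed by 0.43 ± 0.27 between durations (limma unadjusted p = 0.121, adjusted p = 0.636), and the ranges of CMC 90d and PB 28d overlapped. Treated samples were higher at 90 than at 28 days by 0.91 ± 0.27 (limma unadjusted p = 0.00274, adjusted p = 0.971), and 4 of the 5 lay above every PB 28d sample. The phenobarbital effect itself was larger at 90 days by 0.48 ± 0.38 (95% interval -0.31 to 1.26, limma unadjusted p = 0.22, adjusted p = 1), which is not beyond the spread. These comparisons share samples with one another and are not independent. Between durations, the length of dosing cannot be told apart from the age of the mice at sampling. Kupffer cell markers also differed between the treated groups: the mean of all 7 lay between 8.10 and 8.70 in PB 28d and between 7.20 and 8.25 in PB 90d, and 4 of the 7 were lower at an unadjusted p under 0.05, as were 2.27% of all genes. In vehicle samples 0 of the 7 had a positive change between durations, with a median of -0.32 beside -0.88 in treated samples. There 1 of the 7 was lower at an unadjusted p under 0.05, as were 3.66% of all genes. None was called by limma in either treatment. The part of these markers in the Abcc4 difference was not tested.

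**Figure D1:**
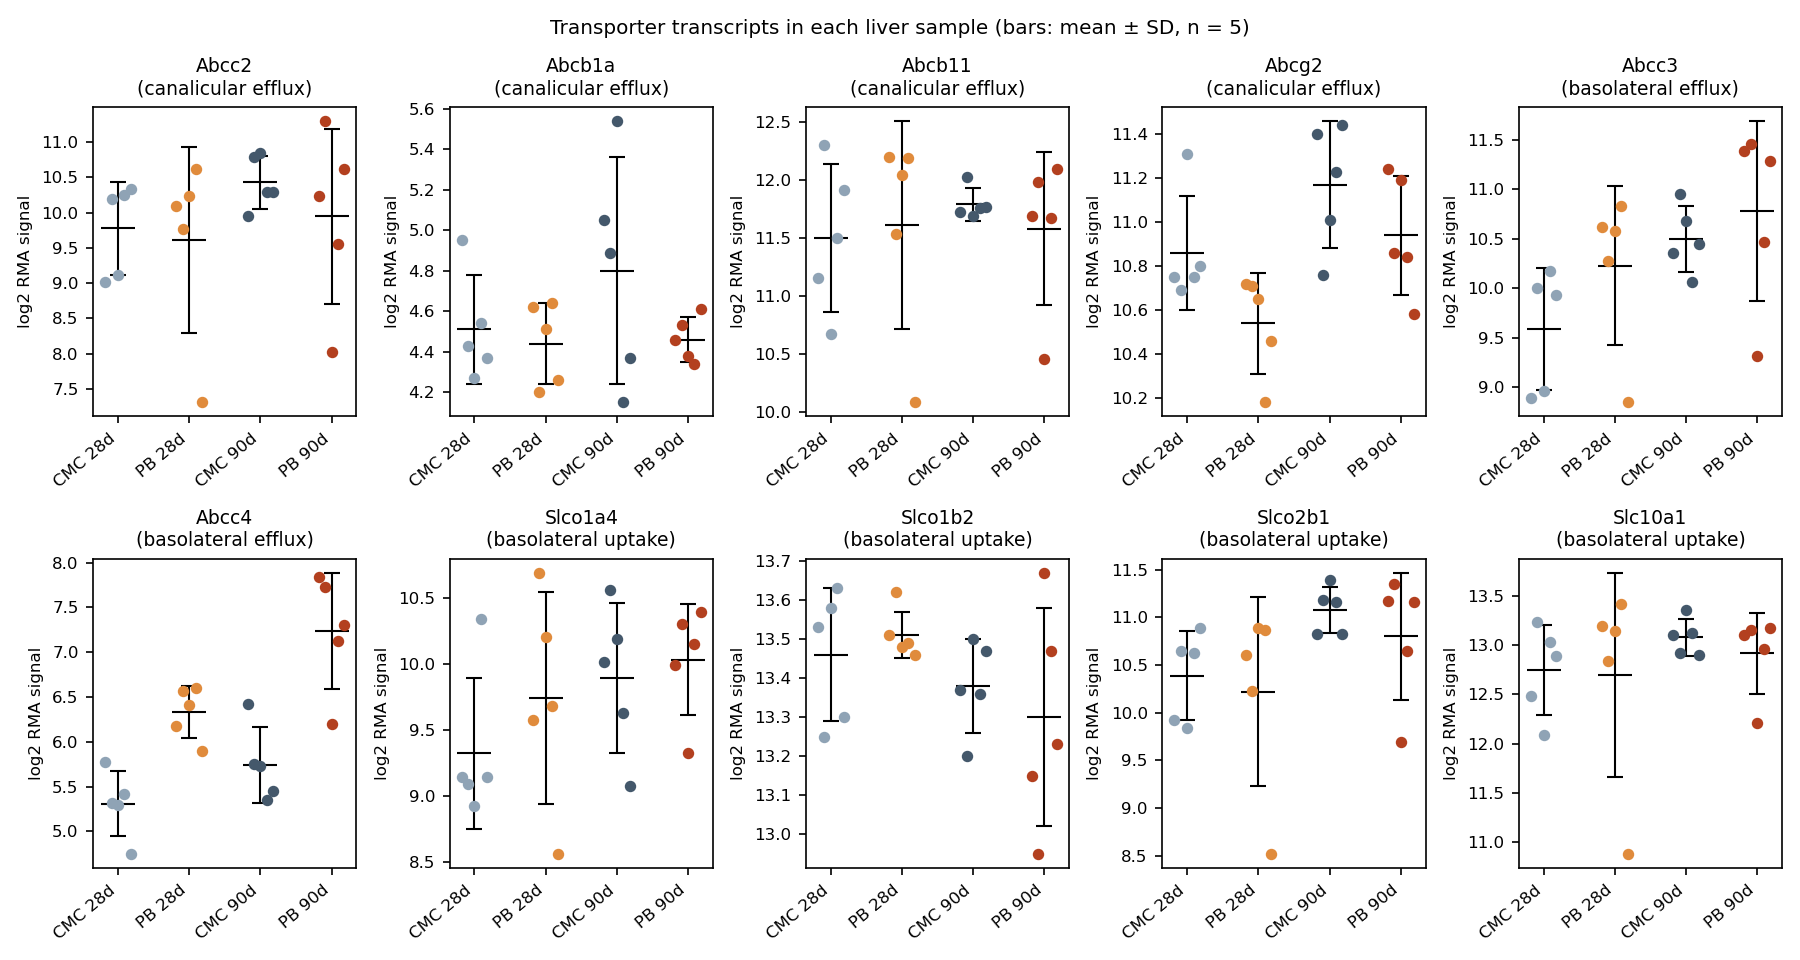
Log2 RMA signal of the 10 transporters in each liver sample (points), by group on the horizontal axis, with the mean and SD (bars, n = 5). The Abcc4 points of PB 28d lie between 5.90 and 6.60, all above CMC 28d. Those of PB 90d lie between 6.20 and 7.84, the lowest of them below the highest CMC 90d point of 6.42. The treated and vehicle points of the other transporters overlap at both durations.

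Windows of 250 bases before and 50 bases after a start site of Abcc4 and of Abcc2 are shown because Abcc4 was the transporter called and Abcc2, also known as a gene of drug and oxidant response, was not. Sequences are from RefSeq (mouse build GRCm38.p6), not from the CD-1 mice. Capitals mark GGGTCA or AGGTCA, hexamers of the kind that CAR and related nuclear receptors bind, and TGACNNNGC, the core of the antioxidant response element bound by NRF2, on either strand. RefSeq gives 2 windows for Abcc4. The one printed, of the start site farther upstream, lies at chr14:118706170-118706469 on the minus strand, and the other, at chr14:118676882-118677181, held 1 antioxidant core and none of the hexamers searched. The Abcc2 window lies at chr19:43782058-43782357 on the plus strand.
Abcc4: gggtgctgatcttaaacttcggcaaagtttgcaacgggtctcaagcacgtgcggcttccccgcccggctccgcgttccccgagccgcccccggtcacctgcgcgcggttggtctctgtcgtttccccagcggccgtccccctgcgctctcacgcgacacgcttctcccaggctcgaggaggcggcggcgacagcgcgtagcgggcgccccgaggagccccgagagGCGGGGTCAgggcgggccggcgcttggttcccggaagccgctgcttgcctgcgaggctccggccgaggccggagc
Abcc2: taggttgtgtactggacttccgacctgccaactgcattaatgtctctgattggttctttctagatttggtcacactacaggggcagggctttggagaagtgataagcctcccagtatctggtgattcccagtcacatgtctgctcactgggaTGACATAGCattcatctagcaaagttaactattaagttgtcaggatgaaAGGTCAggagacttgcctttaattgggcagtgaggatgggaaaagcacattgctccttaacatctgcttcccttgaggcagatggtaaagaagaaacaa
In the Abcc4 window the GGGTCA begins at base 229 and shares all its letters with an antioxidant core on the opposite strand, which begins at base 226. In the Abcc2 window an antioxidant core begins at base 153 and an AGGTCA at base 202.

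Both kinds of match are common. Of 32851 mouse windows of this length, 12.4% held the core, 16.3% held AGGTCA, 14.0% AGTTCA, 13.7% GGGTCA and 37.5% any of these 3 hexamers. A direct pair of hexamers 4 bases apart, the spacing that CAR is known to bind, was in 0.0639% of all windows and in none of the 15 windows found for 9 of the transporters. A match is a description of the letters, and its absence says nothing about the factor, which may bind elsewhere.

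Abcc3 (MRP3), a basolateral exporter of glucuronides and bile salts, had 1 probe set, 1428988_at. Its signals were 8.89, 10.00, 8.96, 10.18 and 9.93 in CMC 28d, in order of replicate number. In PB 28d they were 10.62, 10.28, 10.58, 10.83 and 8.85. Above every vehicle sample lay 4 treated samples, and PB 28d replicate 5 lay below every one.

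At 90 days Abcc3 gave 10.36, 10.95, 10.68, 10.06 and 10.45 in the vehicle samples and 11.39, 11.46, 9.32, 10.47 and 11.29 in the treated samples. The pattern was the same: 3 treated samples lay above all vehicle samples and PB 90d replicate 3 lay below all of them. The difference was 0.64 ± 0.41 at 28 days (95% interval -0.21 to 1.49) and 0.28 ± 0.41 at 90 days (-0.56 to 1.13). Neither was beyond the spread (limma adjusted p = 1 and 0.846).

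The spread of Abcc3 within groups followed the first component closely (Pearson r = 0.94 over the 20 arrays after subtraction of group means). With that component as a covariate, the difference was 0.83 ± 0.14 at 28 days (limma adjusted p = 0.0147), 0.75 ± 0.15 at 90 days (0.0297) and 0.79 ± 0.11 averaged (1.73-fold, 0.000178). In that fit 0.106% of all genes were called at 28 days, 0.206% at 90 days and 0.318% on average. The adjusted signals lay between 9.53 and 10.15 in CMC 28d and between 10.40 and 10.77 in PB 28d. At 90 days they lay between 9.60 and 10.35 in CMC 90d and between 10.48 and 11.04 in PB 90d. The share of all genes whose groups lie apart after this adjustment was not computed. The component was computed from these same arrays, transporters included. PB 28d replicate 5 and PB 90d replicates 3 and 4 scored below every vehicle array of their duration. For them the adjustment rests on the straight line of the fit, with no vehicle array of like score beside them. Simply leaving out the 2 arrays gave 0.99 ± 0.27 at 28 days (limma adjusted p = 0.582) and 0.65 ± 0.27 at 90 days (0.999), which did not pass, in fits that called 0.0685% and 0.174% of all genes.

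**Figure D2:**
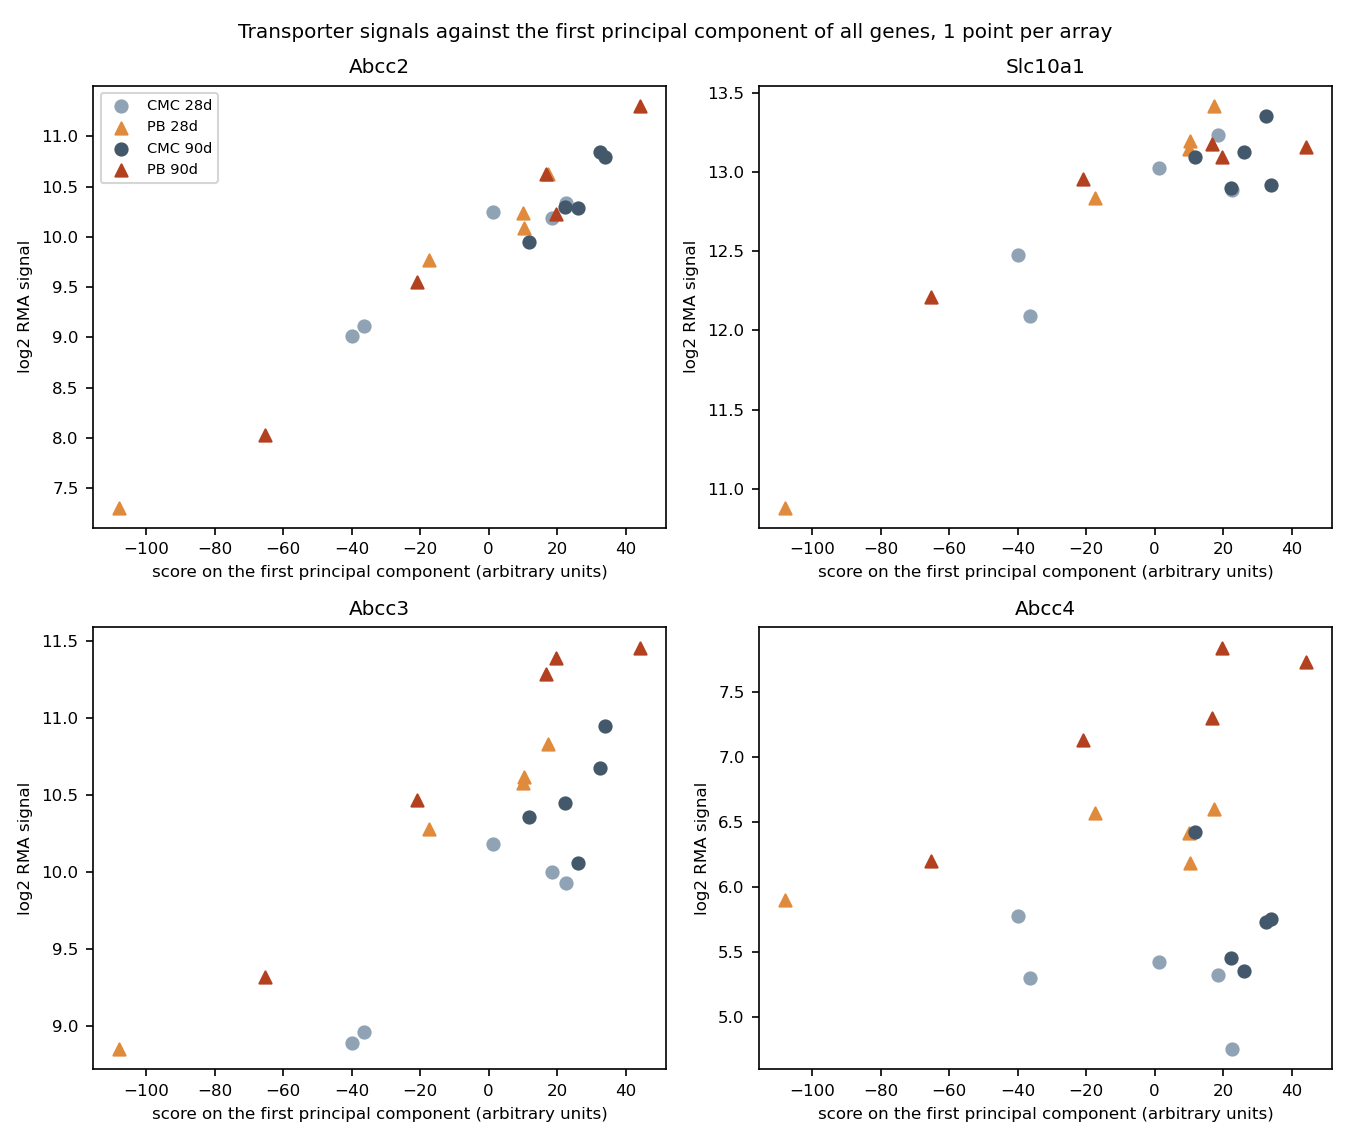
Log2 RMA signal of Abcc2, Slc10a1, Abcc3 and Abcc4 (vertical axes) against the score of each array on the first principal component of all genes (horizontal axes, arbitrary units). In the Abcc2 and Slc10a1 panels treated and vehicle arrays share 1 band. In the Abcc3 and Abcc4 panels treated arrays lie above vehicle arrays of the same duration and like score, where such vehicle arrays exist. None exists for PB 28d replicate 5 (-107.9, lowest CMC 28d score -39.8). The same holds for PB 90d replicates 3 and 4 (-65.2 and -20.9, lowest CMC 90d score 11.7).

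Of the 4 canalicular pumps, none was called with phenobarbital at either duration. Abcc2 (MRP2), the pump for bilirubin glucuronides and drug conjugates, was the most variable of the 10. Its 1 probe set gave 9.01, 10.19, 9.11, 10.25 and 10.34 in CMC 28d and 10.09, 9.77, 10.24, 10.62 and 7.31 in PB 28d. It gave 9.95, 10.79, 10.84, 10.29 and 10.30 in CMC 90d and 10.23, 11.30, 8.03, 9.55 and 10.62 in PB 90d.

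In each treated group 1 sample lay far below the others in Abcc2, the same 2 arrays as before. At 28 days 1 further treated sample lay above every vehicle sample, and at 90 days 1 lay above and 1 more lay below, so that the groups overlapped. The difference was -0.17 ± 0.56 at 28 days (95% interval -1.35 to 1.0) and -0.49 ± 0.56 at 90 days (-1.66 to 0.69). Its r with the first component was 0.98, and its spread within groups exceeded that of 98.9% of genes. With the component as a covariate the difference turned positive, 0.11 ± 0.13 at 28 days (-0.16 to 0.38) and 0.20 ± 0.13 at 90 days (-0.08 to 0.47), and did not pass.

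Abcb11 (BSEP), the pump that drives bile salts into bile, lay between 10.67 and 12.30 in CMC 28d and between 10.08 and 12.20 in PB 28d. At 90 days the vehicle samples lay between 11.69 and 12.03 and the treated samples between 10.45 and 12.10. Ranges overlapped at both durations, and both treated minima were in the 2 arrays named above. The difference was 0.10 ± 0.37 at 28 days (95% interval -0.67 to 0.88) and -0.22 ± 0.37 at 90 days (-0.99 to 0.56). Without the 2 arrays it was 0.49 ± 0.24 at 28 days (limma unadjusted p = 0.0549) and 0.06 ± 0.24 at 90 days.

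Abcg2 (BCRP), a pump for sulphates, urate and many drugs, ran the other way. It gave 10.75, 10.69, 11.31, 10.75 and 10.80 in CMC 28d and 10.72, 10.71, 10.65, 10.18 and 10.46 in PB 28d, where 3 treated samples lay below every vehicle sample. At 90 days it lay between 10.76 and 11.44 in the vehicle samples and between 10.58 and 11.24 in the treated samples. The difference was -0.32 ± 0.17 at 28 days, -0.22 ± 0.17 at 90 days and -0.27 ± 0.12 averaged over both, where the unadjusted p was 0.0411 and the limma adjusted p 0.72. The averaged difference was -0.29 without the 2 arrays and -0.30 with the first component as a covariate, and it did not pass in either (limma adjusted p = 0.861 and 0.39). Abcg2 was little related to the component (r = -0.26).

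Abcb1a, which encodes a P-glycoprotein that exports many drugs, was close to background. Its brighter probe set lay only 0.50 above the 25th percentile on average, with values between 4.15 and 5.54 over all 20 arrays, and the dimmer one exceeded that percentile on 7 of the 20. The difference was -0.07 ± 0.19 at 28 days and -0.34 ± 0.19 at 90 days (limma unadjusted p = 0.0953). The dimmer probe set gave -0.41 ± 0.19 at 90 days (unadjusted p = 0.0408, adjusted p = 0.845 over 35662 probe sets tested singly). Treated and vehicle samples overlapped in both probe sets.

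The 4 uptake carriers also gave no call at either duration. Slc10a1 (NTCP), the sodium-dependent carrier of bile salts from blood, gave 12.48, 13.24, 12.09, 13.03 and 12.89 in CMC 28d and 13.20, 12.84, 13.15, 13.42 and 10.88 in PB 28d. In CMC 90d it gave 13.10, 12.92, 13.36, 13.13 and 12.90, and in PB 90d 13.10, 13.16, 12.21, 12.96 and 13.18. Groups overlapped at both durations. PB 28d replicate 5 and PB 90d replicate 3 lay below all vehicle samples of their duration, and PB 28d replicate 4 lay above all of its own.

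The Slc10a1 difference was -0.05 ± 0.35 at 28 days (95% interval -0.78 to 0.68) and -0.16 ± 0.35 at 90 days (-0.89 to 0.57). Its second probe set gave -0.03 ± 0.43 and -0.25 ± 0.43. Without the 2 arrays the 28-day value turned to 0.40 ± 0.18 (limma unadjusted p = 0.0367, adjusted p = 0.973) and the 90-day value to 0.02 ± 0.18.

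Slco1a4 (OATP1A4), a carrier of digoxin and other drugs that is known to respond to CAR and PXR activators in mouse liver, lay between 8.92 and 10.34 in CMC 28d and between 8.56 and 10.69 in PB 28d. At 90 days it lay between 9.07 and 10.56 in the vehicle samples and between 9.32 and 10.39 in the treated samples. Overlap was wide at both durations. The difference was 0.42 ± 0.36 at 28 days (95% interval -0.33 to 1.16) and 0.13 ± 0.36 at 90 days (-0.61 to 0.88), with limma adjusted p-values of 1 and 0.913. Without the 2 arrays it was 0.71 ± 0.30 at 28 days (unadjusted p = 0.0297, limma adjusted p = 0.973) and 0.31 ± 0.30 at 90 days.

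Slco1b2 (OATP1B2), the hepatocyte carrier of bilirubin, statins and unconjugated bile acids, was the steadiest. Its brightest probe set stayed between 12.95 and 13.67 on all 20 arrays, and its spread within groups (SD 0.18) exceeded that of only 11.9% of genes. The difference was 0.05 ± 0.12 at 28 days (95% interval -0.19 to 0.30) and -0.09 ± 0.12 at 90 days (-0.33 to 0.16), and the upper ends correspond to 1.23-fold and 1.11-fold. None of its 4 other probe sets passed the test with phenobarbital at either duration. Of these, 1427826_a_at was the most variable, with values from 6.83 to 9.89 in PB 90d.

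Slco2b1 (OATP2B1), a carrier of steroid sulphates and statins, lay between 9.84 and 10.89 in CMC 28d and between 8.52 and 10.89 in PB 28d, and between 10.83 and 11.39 in CMC 90d and 9.69 and 11.35 in PB 90d. The groups overlapped. The difference was -0.16 ± 0.38 at 28 days (95% interval -0.96 to 0.63) and -0.27 ± 0.38 at 90 days (-1.07 to 0.52). Its second probe set gave the opposite sign, 0.12 ± 0.22 and 0.06 ± 0.22, as did the dimmest, 0.18 ± 0.17 and 0.09 ± 0.17, and none of the 3 passed. Without the 2 low-scoring arrays the brightest gave 0.26 ± 0.22 at 28 days and 0.00 ± 0.22 at 90 days, and with the first component as a covariate 0.02 ± 0.10 and 0.18 ± 0.10, none of which passed.

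**Figure D3:**
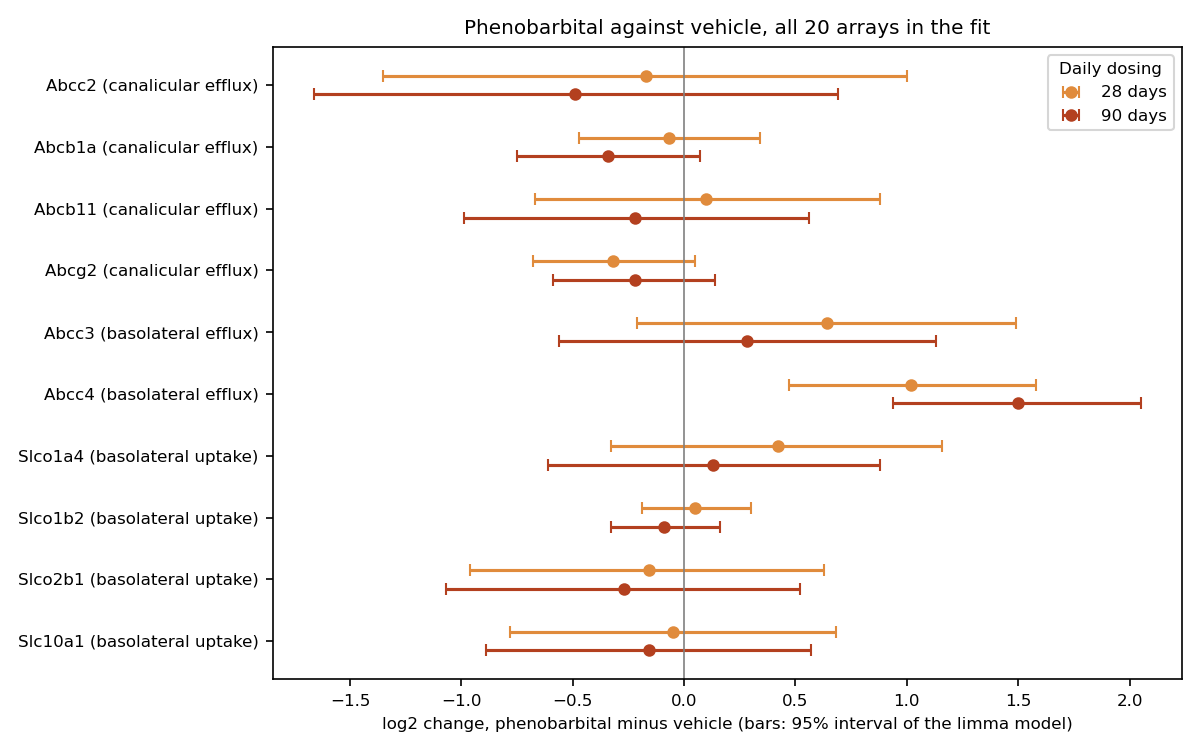
Log2 change with phenobarbital against vehicle (horizontal axis; points, with the 95% interval of the limma model as bars) for the 10 transporters at 28 and 90 days. The Abcc4 intervals, 0.47 to 1.58 and 0.94 to 2.05, lie above 0 at both durations, and those of the other 9 transporters include 0.

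In all, 0 of 10 transporters were called at 28 days and 1 of 10 at 90 days, and 1 of 10, Abcc4, had an unadjusted limma p under 0.05 at each, against 2.86% and 4.53% of all genes. The median change over the 10 was 0.00 at 28 days and -0.19 at 90 days, beside 0.00 and 0.03 over all genes tested. For the mean of both durations, 1 of 10 was called, at a background of 0.212%, and 2 of 10, Abcc4 and Abcg2, had an unadjusted p under 0.05, against 6.6%. The phenobarbital effect differed between durations in 0 of 10 by limma, with 0 also at an unadjusted p under 0.05, where 0% of all genes were called and 1.38% were under 0.05. A p that misses the threshold does not show that a transporter stayed the same: for Abcc2 the 28-day interval still reached 2-fold up.

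The transporters differed in how they varied between samples of 1 group. After subtraction of group means, r with the first component was 0.98 for Abcc2 and Slco2b1, 0.94 for Abcb11 and Abcc3 and 0.90 for Slc10a1. It was 0.55 for Slco1a4, 0.42 for Abcc4, 0.17 for Abcb1a, -0.26 for Abcg2 and -0.57 for Slco1b2. The median size of r over all genes was 0.62, so that 5 of the 10 lay well above it, and these descriptions share the same 20 arrays. Pairs among those 5 were correlated accordingly, from 0.84 for Abcc3 with Slc10a1 to 0.97 for Abcc2 with Slco2b1.

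Probe sets of 1 gene did not always share this pattern. The 3 probe sets of Slco2b1 had r of 0.98, 0.94 and -0.63 with the component, and the dimmest thus ran against the other two. All 5 of Slco1b2 were negative, from -0.26 to -0.86, and the pair of Slc10a1 both gave 0.90. The part of RNA quality in this component was not tested. The 25th percentile of the array, the one background measure the table allows, was 4.26 in PB 28d replicate 5 and 4.12 in PB 90d replicate 3, the highest values of the 20, and lay between 3.96 and 4.11 on the other 18.

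**Figure D4:**
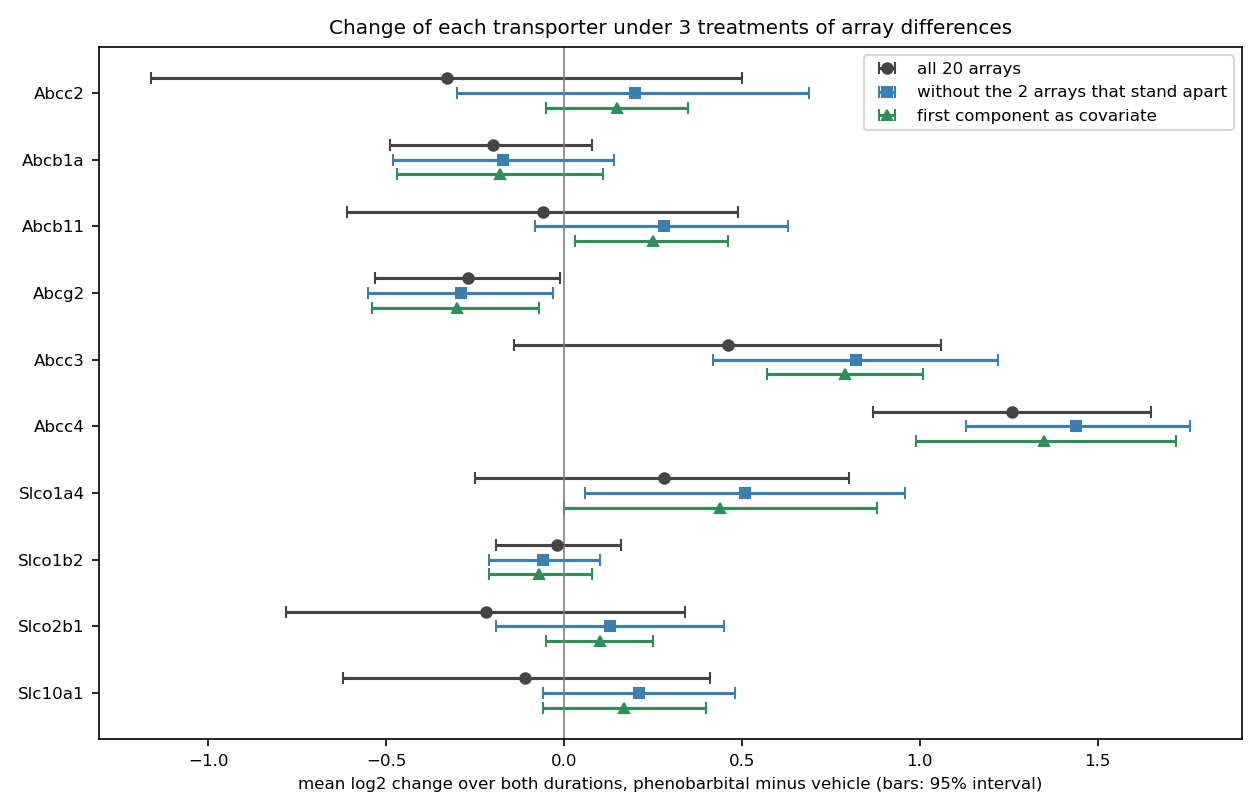
Log2 change with phenobarbital averaged over both durations (horizontal axis, with 95% intervals as bars) for each transporter in 3 fits. These are with all 20 arrays, without the 2 low-scoring arrays, and with the first component as a covariate. Abcc4 stays between 1.26 and 1.44, while Abcc2 moves from -0.33 to 0.20 on leaving out the 2 arrays.

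Samples at 90 and 28 days were compared within each treatment. Here the length of dosing cannot be told apart from the age of the mice at sampling or the date of collection. Among vehicle samples 9 of the 10 transporters had a higher mean at 90 than at 28 days, against 45.8% of all genes, with a median of 0.38 beside -0.03 over all genes. None was called by limma (0% of all genes were), and 1 of 10 had an unadjusted p under 0.05, against 5.69% of genes. This was Abcc3, with 0.91 ± 0.41 (limma unadjusted p = 0.0369, adjusted p = 0.636). Leaving out the 2 low-scoring treated arrays kept the size of the vehicle differences but narrowed the spread. The limma unadjusted p was then 0.00213 for Abcc3, 0.00327 for Slco2b1 and 0.0476 for Abcc4, and none passed (adjusted p = 0.279, 0.279 and 0.283). The share of all genes under 0.05 in that fit was not computed. CMC 28d replicates 1 and 3 had scores of -39.8 and -36.4 on the first component, and with it as a covariate Abcc3 gave 0.34 ± 0.15 while Abcc2 moved from 0.65 to -0.18, Abcb11 from 0.29 to -0.23 and Slc10a1 from 0.33 to -0.14. In that fit 7 of the 10 were positive.

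Among treated samples 8 of 10 had a higher mean at 90 days, against 50.3% of all genes, and none was called, at a background of 0.00623%. Unadjusted p-values under 0.05 were found for 2 of 10, against 4.23% of genes. These were Abcc4, above, and Abcg2, with 0.40 ± 0.17 (limma unadjusted p = 0.0327, adjusted p = 0.971), where 4 of the 5 PB 90d samples lay above every PB 28d sample. Without the 2 low-scoring arrays Abcg2 gave 0.32 ± 0.19 (limma unadjusted p = 0.105). In that fit Abcc4 gave 1.06 ± 0.23 (limma unadjusted p = 0.000174, adjusted p = 0.636). Slco1b2 gave -0.32 ± 0.11 (limma unadjusted p = 0.00907, adjusted p = 0.999). With the first component as covariate, positive values were 0.43 for Abcg2, 0.26 for Abcc3, 0.82 for Abcc4, 0.14 for Slco1a4 and 0.30 for Slco2b1. In that fit the others were negative: -0.09 for Abcc2, -0.01 for Abcb1a, -0.30 for Abcb11, -0.17 for Slco1b2 and -0.02 for Slc10a1.

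Genes whose signal followed Abcc4 most closely over the 20 arrays were 4931406C07Rik (r = 0.898), Fam171a1 (0.894), Cyp2b10 (0.855), Cyp2c54 (0.847) and Gstm3 (0.831). All 5 had higher means with phenobarbital at both durations, from 0.71 for Fam171a1 at 28 days to 5.88 for Cyp2b10 at 90 days. After subtraction of group means, a different set came first: Arhgap24 (0.807), Fmnl2 (0.782), Chst15 (0.774), Zfp653 (0.77) and Gpr135 (0.768). Their phenobarbital differences lay between -0.09 and 0.52, so likeness between groups and likeness within groups picked different genes. These values describe the genes with the highest r among all tested and carry no test.

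Whether Abcc4 varied with Cyp2b10 between treated samples was tested over the 10 treated arrays, the only pair tested in this way. Pearson's r was 0.72 (permutation p = 0.00178) and Spearman's rho 0.77 (permutation p = 0.0125). After subtraction of the mean of each duration, r was 0.657 (permutation p = 0.0818) and rho 0.261 (permutation p = 0.467). Leaving out the 2 samples farthest from the median of Cyp2b10, which were again PB 28d replicate 5 and PB 90d replicate 3, gave r = 0.618 (exact permutation p = 0.0711) and rho = 0.643 (0.0962) over 8 samples. The coefficients of Pearson stayed near their first size in both checks, but rho fell to 0.261 with duration means subtracted. The check over 8 samples still pooled both durations. No p-value of either check passed 0.05, so a relation beyond these samples and durations was not established. With 5 arrays at each duration, no value within a duration was computed.

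**Figure D5:**
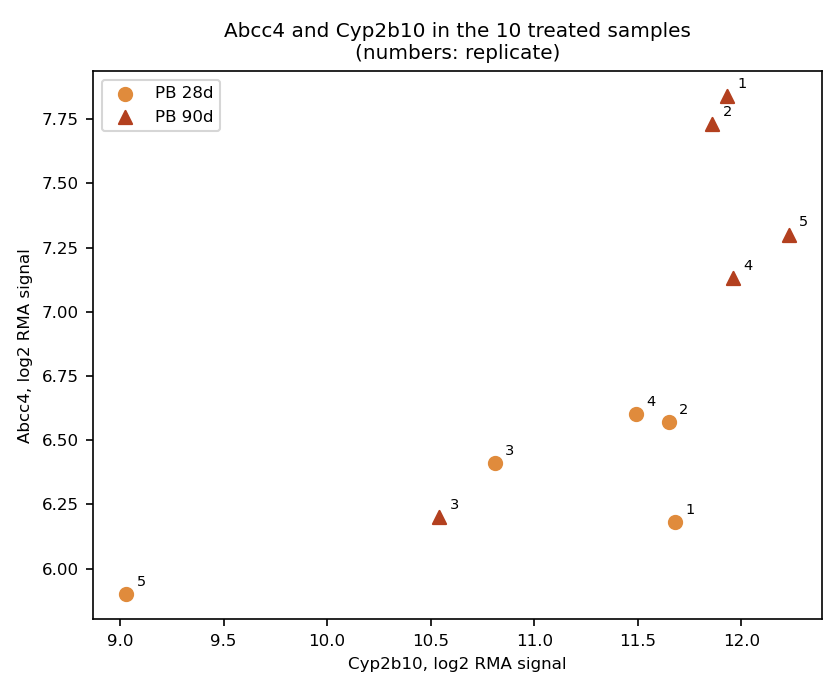
Abcc4 (vertical axis) against Cyp2b10 (horizontal axis), both log2 RMA signal, in the 10 samples treated with phenobarbital, marked by duration and replicate number. The lowest point on both axes is PB 28d replicate 5, and 4 of the 5 PB 90d samples lie above all PB 28d samples in Abcc4.

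Other genes of transport and of its control gave the following counts. Of 45 other hepatic transporters listed, 37 were tested, 5 had no probe set in the table and 3 were below the filter, and by limma 0 were called at either duration. At an unadjusted p under 0.05 there were 0 at 28 days, and 1 higher and 1 lower at 90 days. Slc22a27, of the organic anion transporter family, was close to background: its mean lay at -0.01 from the array's 25th percentile in CMC 90d and at 0.37 in PB 90d, so its difference of 0.42 ± 0.20 (unadjusted p = 0.0479) has no firm size. Slc22a7 (OAT2), a basolateral carrier of organic anions, gave -0.85 ± 0.41 (unadjusted p = 0.0487), with 4 of 5 treated samples below every vehicle sample. The list's median was 0.02 at 28 days and -0.12 at 90 days. By the same naming rule, Slc10a6, a carrier of sulphated steroids, gave 0.19 ± 0.13 and Slco4a1, of the organic anion carrier family, 0.24 ± 0.16 at 28 days, and Abcc10, an exporter related to Abcc4, -0.32 ± 0.18 at 90 days.

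Bile acid synthesis and conjugation, which makes the substrates of Abcb11 and Slc10a1, had 20 genes tested and 0 called by limma, with 0 at 28 days and 2 lower at 90 days at an unadjusted p under 0.05. Cyp7a1, the rate-limiting enzyme of bile acid synthesis, lay between 9.22 and 11.36 in CMC 28d and between 8.66 and 10.17 in PB 28d, and between 9.82 and 12.45 in CMC 90d and 9.06 and 11.14 in PB 90d. Its difference was -0.94 ± 0.49 at 28 days (unadjusted p = 0.0694), -1.07 ± 0.49 at 90 days (0.0416) and -1.01 ± 0.35 averaged (0.0089, limma adjusted p = 0.597). Hsd17b4, a peroxisomal enzyme that shortens the bile acid side chain, gave -0.56 ± 0.25 at 90 days (unadjusted p = 0.0341), where treated and vehicle samples did not overlap, as in 1.07% of all genes. Cyp7b1, an oxysterol hydroxylase, gave -0.62 ± 0.31 at 90 days (limma adjusted p = 0.816), and Akr1d1, the steroid reductase of the pathway, 0.32 ± 0.27 at 28 days.

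Regulators of transporters numbered 25 tested and 0 called by limma, with 1 lower at each duration at an unadjusted p under 0.05. This was Esr1, the oestrogen receptor, with -0.84 ± 0.33 at 28 days (unadjusted p = 0.0191) and -0.69 ± 0.33 at 90 days (0.0492). Others named by the rule gave -0.22 ± 0.15 for Nr1i2 (PXR) and 0.21 ± 0.13 for the receptor partner Rxrb at 28 days, and 0.37 ± 0.19 for the retinoic acid receptor Rara and -0.77 ± 0.44 for the transcription factor Cebpb at 90 days. Among 16 genes of the apical scaffold and vesicle traffic, which hold canalicular pumps in place, 0 were called and 0 had an unadjusted p under 0.05 at either duration. Pdzk1, a scaffold protein that binds transporter tails, gave -0.37 ± 0.27 and Hax1, a partner of Abcb11, 0.20 ± 0.13 at 90 days. The sodium pump subunit Atp1b1 gave -0.32 ± 0.26 at 28 days. Ezr and Slc9a3r2, which link membrane proteins to actin, gave 0.22 ± 0.15 and 0.17 ± 0.10 at 28 days, and turned to -0.10 and -0.07 when probe sets marked as shared by several transcripts were left out.

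Target genes of CAR behaved otherwise. Of 25 tested, 6 were called higher at 28 days, 8 at 90 days and 11 averaged over both, and 0 lower, while 0.0498%, 0.137% and 0.193% of all genes were called higher. The 28-day genes were Cyp2b10 (4.90 ± 0.62, limma adjusted p = 0.000572), Cyp2c55, Cyp2c37, Cyp2c50, Cyp2c54 and the carboxylesterase Ces2a, and Cyp2b13 and the oestrogen sulphotransferase Sult1e1 joined them at 90 days. Cyp2b9, Gstt1 and Gstt3 passed only in the mean of both durations. That list was drawn up from genes already known to respond to this drug, in part in these data, so its direction is not independent evidence. The 14 NRF2 target genes tested, a second route by which Abcc2, Abcc3 and Abcc4 are known to be raised, gave 0 calls by limma and 0 at an unadjusted p under 0.05 at either duration, with medians of -0.06 and -0.01. Nqo1, the usual NRF2 readout, gave -0.07 ± 0.31 at 28 days and 0.52 ± 0.31 at 90 days. The others named were Txnrd1 (-0.47 ± 0.28) and Gpx2 (0.26 ± 0.17) at 90 days, and Srxn1 (-0.27 ± 0.15) and Ephx1 (0.34 ± 0.20) at 28 days, enzymes that handle oxidants or reactive drugs.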

How the data were processed

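RNA of 20 liver samples, extracted with Qiazol and labelled with biotin, was measured on Affymetrix 3' expression arrays. The authors deposited 1 table of log2 intensity values made, per the submitters' processing notes, with RMA, which corrects background, quantile-normalises arrays and summarises probes. No source used here names its version or a genome build. Values were used as deposited, and 0 columns were left unused. The number of arrays limits the precision.

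Of 45037 probe sets, 34945 had 1 symbol in the platform annotation of 2016, 932 several and 9160 none. Entrez identifiers of 34741 were found in the RefSeq table of GRCm38.p6, 204 were not, and 0 symbols changed. The probe set with the highest mean stood for a gene. Genes above the array's 25th percentile (3.96 to 4.26) on at least 5 arrays were tested, which removed 2139 of 18193.

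All 4 groups entered 1 limma fit (version 3.58.1 in R 4.3.3, eBayes with intensity trend, 16 residual degrees of freedom), two-sided, with Benjamini-Hochberg adjustment over 16054 genes and a threshold of 0.05. The script was tested on simulated data. The 10 transporters and all gene lists were chosen with earlier results of these data known. Beside the transporters, Cyp2b10 and Cyp2c55, the text names from each list the genes called with phenobarbital and the 3 with the smallest unadjusted p at each duration, and the 5 genes most like a called transporter on each scale. Correlations were tested with SciPy 1.17.1 by 100000 permutations, or all pairings for 8 samples. Promoter windows came from the RefSeq table, which held windows for 9 transporters and none for Abcc3. Alternatives covered the filter, the choice of probe sets, the variance prior, the samples in the fit, array weights, scaling, the replicate number as a block and single arrays left out.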

Additional observations from a re-analysis of the deposited data

Results flagged for a closer look

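In 9 of the 40 groups of a transporter (10 transporters in 4 groups of 5), the highest or lowest sample stood apart from the other 4 by more than Dixon's critical value of 0.71; chance alone gives about 1 in 20 such groups. Of these, 6 were low values of the 2 low-scoring treated arrays. PB 28d replicate 5 was low for Abcc2 (7.31, next sample 9.77), Abcc3 (8.85, next 10.28), Slco2b1 (8.52, next 10.23) and Slc10a1 (10.88, next 12.84). PB 90d replicate 3 was low for Abcb11 (10.45, next 11.67) and Slc10a1 (12.21, next 12.96). These 4 and 2 groups are not separate events, since each set comes from 1 array. The other 3 were high values in vehicle samples: Abcb11 in CMC 90d replicate 2 (12.03, next 11.77), Abcg2 in CMC 28d replicate 3 (11.31, next 10.80) and Slco1a4 in CMC 28d replicate 4 (10.34, next 9.14). No Abcc4, Abcb1a or Slco1b2 group held such a sample.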

How the results depend on the processing

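Of 750 values of the transporters recomputed under the alternatives other than single removals, 685 kept their direction and side of the threshold, 58 turned their sign (none of them called), 3 lost a call or threshold and 4 gained one. Several alternatives leave the log2 change as it was by construction. These are the changes of filter, variance prior, block and groups in the fit, and probe sets tested singly. The count thus overstates how firm the directions are. The count of transporters called at 90 days fell from 1 to 0 with only the groups compared, and lay between 0 and 1 on leaving out single arrays. The count at 28 days rose from 0 to 1 with array weights (lowest weights 0.12 for PB 28d replicate 5 and 0.277 for PB 90d replicate 3). With the first component as a covariate it was 1 at 28 days, 2 at 90 days and 2 for the mean of both. The Pearson correlation of Abcc4 with Cyp2b10 was 0.657 with duration means subtracted (Spearman's rho 0.261) and 0.618 without the farthest 2 arrays (rho 0.643). Over all genes, 8 calls at 28 days became 4 with only the groups compared, 17 with array weights and 17 with the covariate. The 1 call in treated samples between durations became 0 with only the groups compared and 2 with array weights, with cyclic loess and without the 2 arrays. The 11 CAR targets called on average became 17 with array weights. Where no construction is named, the cause of a change was not tested.

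Changes of sign came as follows (log2 change). With array weights the 28-day values were 0.24 for Abcc2, 0.02 for Abcb1a, 0.18 for Slco2b1 and 0.29 for Slc10a1, the averages 0.03 for Abcc2, 0.18 for Abcb11, 0.06 for Slco2b1 and 0.13 for Slc10a1, the difference of effects -0.05 for Abcg2, and between treated groups -0.04 for Abcb1a and -0.11 for Slc10a1. With the first component as a covariate, 28 days gave 0.11 for Abcc2, 0.02 for Slco2b1 and 0.11 for Slc10a1, and 90 days 0.20 for Abcc2, 0.21 for Abcb11, 0.18 for Slco2b1 and 0.23 for Slc10a1. The difference of effects was then 0.09, 0.16 and 0.12 for Abcc2, Slco2b1 and Slc10a1, and the averages 0.15, 0.25, 0.10 and 0.17 for Abcc2, Abcb11, Slco2b1 and Slc10a1. Between vehicle groups it gave -0.18 for Abcc2, -0.23 for Abcb11, 0.01 for Slco1b2 and -0.14 for Slc10a1, and between treated groups -0.09 for Abcc2, -0.01 for Abcb1a and -0.02 for Slc10a1. Without the 2 arrays, 28 days gave 0.40 for Abcc2, 0.26 for Slco2b1, 0.40 for Slc10a1 and 0.00 for Txnrd1, 90 days 0.06 for Abcb11, 0.00 for Slco2b1 and 0.02 for Slc10a1, the averages 0.20, 0.28, 0.13 and 0.21 for Abcc2, Abcb11, Slco2b1 and Slc10a1, and between treated groups -0.01 for Abcb1a and -0.05 for Slc10a1. Centring on the 75th percentile gave 0.01 for Slco1b2 at 90 days, averages of 0.05 for Slco1b2 and 0.01 for Abcb11, and -0.06 for Abcb1a between treated groups. The mean of probe sets gave 0.04 for Slco2b1 at 28 days and averages of 0.03 for Slco1b2 and 0.00 for Slco2b1. Without shared probe sets Slco1b2 gave 0.00, 0.10, 0.10 (difference) and 0.05 (average), Slco2b1 0.12, 0.06 and 0.09 (average), Slc9a3r2 -0.07 and 0.00, Ezr -0.10 and Srxn1 0.13.

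Single removals turned 45 of 800 values. Their ranges were -0.11 to 0.49 at 28 days, -0.35 to 0.06 at 90 days, -0.16 to 0.13 on average and -0.41 to 0.25 between treated groups for Abcb11, and -0.13 to 0.04 at 28 days and -0.04 to 0.07 between treated groups for Abcb1a. For Abcc2 they were -0.43 to 0.40 at 28 days, -0.89 to 0.16 for the difference and -0.23 to 0.82 between treated groups. For Slc10a1 they were -0.23 to 0.40, -0.22 to 0.02, -0.20 to 0.12 (average), -0.56 to 0.07 (difference) and -0.23 to 0.41 (treated groups). For Slco2b1 they were -0.33 to 0.26, -0.41 to 0.00 and -0.54 to 0.17 (difference), for Slco1a4 -0.07 to 0.31 at 90 days and -0.01 to 0.52 between treated groups, and for Slco1b2 -0.06 to 0.03 on average. The difference of effects ranged from -0.70 to 0.01 for Abcc3 and from -0.02 to 0.18 for Abcg2, and Txnrd1 at 28 days from -0.48 to 0.00. Abcc4 kept its sign, from 0.88 to 1.14 at 28 days and from 1.35 to 1.76 at 90 days.

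Of 10 pairs of treated and vehicle samples with the same replicate number, 2 had r over 0.1 after subtraction of group means. Since the first component weighs heavily in such an r, this cannot show whether the numbers mark pairs. The replicate number as a block changed no transporter's call: Abcc4 gave 1.02 at 28 days (limma adjusted p = 0.355) and 1.50 at 90 days (0.0114). The block gave 8 calls at 28 days, 22 at 90 days and 29 on average over all genes. No value could be had for Abcb1a under the filter at the 50th percentile, for Abcc2 without shared probe sets, or for the difference and average with only the groups compared. Signal over background limits Abcb1a most.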

Other observations

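Among the probe sets tested singly, a dimmer one of Slco1b2 (1427826_a_at) was lower in PB 90d than in PB 28d by 0.91 (log2 change -0.91 ± 0.43, limma adjusted p = 0.982), while the brightest probe set of the same gene gave -0.22 ± 0.12. Its values in PB 90d were 7.49, 6.83, 9.89, 8.90 and 8.45, the highest being replicate 3, the array at the low end of the first component. The dimmer probe set of Abcb1a exceeded the array's 25th percentile in 4 of 5 CMC 90d samples, 2 of 5 CMC 28d samples, 1 of 5 PB 90d samples and 0 of 5 PB 28d samples.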
